A study of Mus musculus with 7 samples.

Results

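A set of 10 transcription factors that direct the identity of lymphoid and myeloid cells was followed in kidney RNA of lupus-prone mice. They were chosen by gene symbol (Ikzf1, Ikzf3, Spi1, Runx1, Runx3, Tbx21, Eomes, Gata3, Foxp3 and Tcf7), and 10 of 10 were found among the 53465 genes of the deposited count table. All 10 passed the filter on low counts and were among the 15774 genes tested. Kidneys of 4 MRL/lpr mice given AZD1152, an inhibitor of the mitotic kinase Aurora B, were set against kidneys of 3 MRL/lpr mice given vehicle. All 7 animals carry the lpr allele, a defect of the Fas gene on the MRL background, with which mice develop a lupus-like disease and accumulate T cells. The sources used here give no dose, schedule, age, sex or wild-type group. Each mouse gave 1 poly(A)-selected renal library, with 14692113 to 17036862 counts in AZD1152 kidneys and 16195173 to 16930859 counts in vehicle kidneys. The tissue label was checked against 9 markers of the proximal tubule, all of which passed the filter, with a summed level of 12342 to 15024 CPM (counts scaled to library size by TMM factors) in AZD1152 kidneys and 8353 to 10569 CPM in vehicle kidneys. AZD1152 replicate 2 was the lowest of its group for 8 of the 10 factors, and vehicle replicate 1 was the lowest of its group for 8 of the 10.

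Each of these proteins binds DNA and switches on or holds down sets of genes that define a blood cell type. Ikaros (Ikzf1), PU.1 (Spi1) and Runx1 act early and in many lineages, whereas T-bet (Tbx21), Eomes, GATA3 and FoxP3 set apart effector and regulatory classes of T cells, and TCF-1 (Tcf7) marks naive and memory-like T cells. In a healthy kidney most of them are carried by resident and passing leukocytes, and in lupus nephritis T cells, macrophages, B cells and plasma cells enter the tissue. GATA3 is an exception, since epithelium of the collecting duct and mesangial cells also make it.

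The comparison asked how the levels of these factors differed between AZD1152 and vehicle kidneys. Ikzf1, Spi1, Runx1 and Tbx21 fell, to 40.3%, 50.4%, 47.3% and 36.4% of the vehicle level. Ikzf3, Runx3, Eomes, Foxp3 and Tcf7 had negative estimates that did not pass the test, and Gata3 had nearly the same level in both groups. In all, 4 of the 10 were lower and 0 were higher at a Benjamini-Hochberg adjusted p under 0.05 over all genes in edgeR's quasi-likelihood test, beside 4.81% of all tested genes that were lower, 3.02% that were higher and 7.83% called either way. Of the 10 estimates 9 were negative, beside 50.1% of all genes. At an unadjusted p under 0.05, 8 of the 10 were lower, beside 13.1% of all genes, and 0 were higher. DESeq2 called 7 of the 10 lower and 0 higher, beside 7.65% and 6.15% of the genes to which it gave an adjusted p. The median log2 fold change of the 10 was -1.14, beside -0.000609 over all genes tested. For 5 of the 10 (Ikzf1, Ikzf3, Spi1, Runx1 and Tbx21) every AZD1152 library lay below every vehicle library, beside 11.6% of all genes. In bulk tissue, fewer cells of a type and less RNA per cell cannot be told apart.

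**Figure D1:**
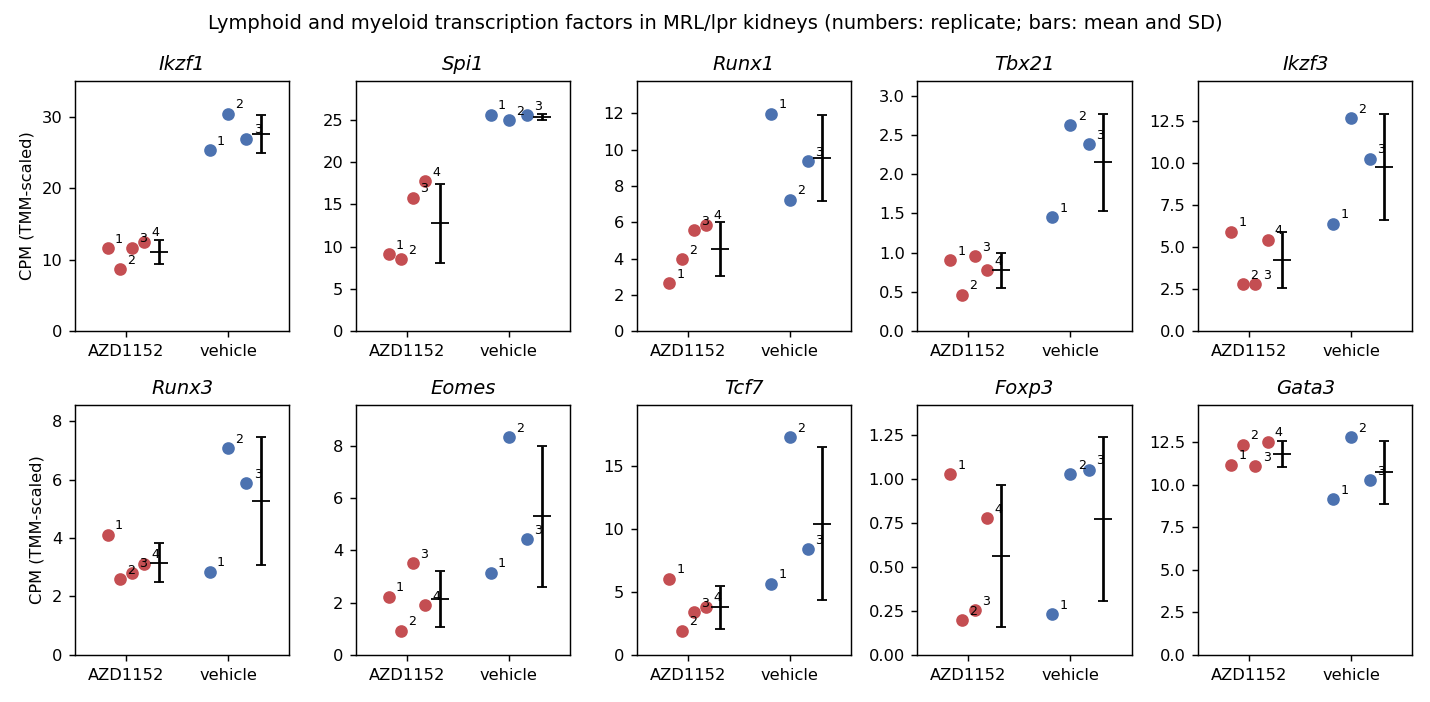
Level of each factor in each library, in TMM-scaled CPM on an axis from 0, with AZD1152 kidneys in red and vehicle kidneys in blue. Numbers beside the points give the replicate, and the bars give the mean and SD of 4 AZD1152 and 3 vehicle libraries. The groups are apart for Ikzf1, Spi1, Runx1, Tbx21 and Ikzf3 and overlap for the other five.

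Ikzf1 (ENSMUSG00000018654; GRCm38 chromosome 11, 11685003 to 11772926, plus strand), which encodes the zinc-finger protein Ikaros of nearly all leukocytes, had the smallest SE of the 4 that fell. Its levels were 11.6, 8.69, 11.7 and 12.5 CPM in AZD1152 replicates 1 to 4 and 25.3, 30.5 and 26.9 CPM in vehicle replicates 1 to 3. The groups were far apart relative to their spread, at 11.1 ± 1.68 CPM in AZD1152 kidneys (SD, n = 4) and 27.6 ± 2.63 CPM in vehicle kidneys (SD, n = 3). It fell by 1.31 ± 0.14 log2 units (SE; edgeR adjusted p = 0.00686). This call held without any 1 of the 7 libraries, with an edgeR adjusted p of 0.00669 to 0.0373. Ikzf3 (ENSMUSG00000018168; chromosome 11, 98464902 to 98546031, minus strand) encodes Aiolos, the relative of Ikaros found mostly in mature lymphocytes. It had 5.92, 2.79, 2.81 and 5.45 CPM in AZD1152 kidneys and 6.4, 12.7 and 10.3 CPM in vehicle kidneys. AZD1152 replicates 1 and 4 came close to vehicle replicate 1 without crossing it. Its log2 fold change of -1.20 ± 0.33 did not pass the edgeR test (adjusted p = 0.058), and DESeq2 called it (adjusted p = 0.00508). The ratio of Ikzf1 to Ikzf3 in CPM was 1.96 to 4.16 in AZD1152 kidneys and 2.41 to 3.95 in vehicle kidneys, with wide overlap.

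Spi1 (ENSMUSG00000002111; chromosome 2, 91082390 to 91115756, plus strand) encodes PU.1, the ETS factor of macrophages, granulocytes and B cells. It had 9.12, 8.49, 15.8 and 17.8 CPM in AZD1152 replicates 1 to 4 and 25.6, 24.9 and 25.5 CPM in vehicle replicates 1 to 3. The vehicle kidneys were nearly identical, while AZD1152 kidneys fell into a lower pair (replicates 1 and 2) and a higher pair (replicates 3 and 4), all below vehicle. It fell by 0.99 ± 0.24 log2 units (SE; edgeR adjusted p = 0.0425). The call was lost without AZD1152 replicate 1 or 2 or any vehicle replicate (edgeR adjusted p up to 0.135), with log2 fold changes of -1.20 to -0.85 throughout.

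Runx1 (ENSMUSG00000022952; chromosome 16, 92601466 to 92826149, minus strand) and Runx3 (ENSMUSG00000070691; chromosome 4, 135120652 to 135177990, plus strand) encode Runt-domain factors that bind the same DNA motif. Runx1 is needed to form blood stem cells and stays on in myeloid and T cells, and Runx3 is a factor of CD8 T cells and natural killer cells. The longest run of bases shared by the RefSeq promoter windows of both genes (GRCm38.p6, 250 bases before to 50 after a start) was 18 bases long. It holds ACCACA, the reverse complement of the RUNX motif TGTGGT, in tandem, and it is shown in capitals here with flanks because it also stood in a window of Runx2, the other gene of the family.

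Runx1, chr16:92826025-92826054, minus strand: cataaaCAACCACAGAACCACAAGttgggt
Runx2, chr17:44814583-44814612, minus strand: cacaaaCAACCACAGAACCACAAGtgcggt
Runx3, chr4:135120503-135120532, plus strand: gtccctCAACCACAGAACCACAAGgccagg

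Of 32851 promoter windows in the RefSeq table, 4 held this run on either strand. They were these 3 and a window of Gm16225, whose exon overlaps the Runx3 window. The run began 27 bases after the start in Runx1, 22 bases after it in Runx2 and at base -136 in Runx3. Counts per gene do not tell which start was used.

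Runx1 had 2.66, 3.98, 5.55 and 5.87 CPM in AZD1152 replicates 1 to 4 and 11.98, 7.24 and 9.37 CPM in vehicle replicates 1 to 3. AZD1152 replicate 1 was the lowest library and vehicle replicate 1 the highest, with a log2 fold change of -1.08 ± 0.28 (SE; edgeR adjusted p = 0.0493). This value is close to the threshold, and the call held without vehicle replicate 2 but was lost when any of the other 6 libraries was omitted, with edgeR giving an adjusted p as high as 0.157. Runx3 had 4.11, 2.59, 2.81 and 3.11 CPM in AZD1152 kidneys and 2.85, 7.07 and 5.88 CPM in vehicle kidneys. Its groups overlapped because vehicle replicate 1 lay among the treated libraries, and its log2 fold change of -0.74 ± 0.31 did not pass the test (edgeR adjusted p = 0.181). Runx2, known best as the bone factor, had 1.53 to 4.53 CPM in AZD1152 kidneys and 5.08 to 6.87 CPM in vehicle kidneys (log2 fold change -1.08 ± 0.33, edgeR adjusted p = 0.0775). Cbfb, the non-DNA-binding partner that all RUNX proteins need, fell. It had 28.1, 29.8, 26.8 and 28.3 CPM in AZD1152 kidneys and 41.9, 38.0 and 39.7 CPM in vehicle kidneys, and the log2 fold change was -0.50 ± 0.08 (edgeR adjusted p = 0.0125). This call held without any 1 of the 7 libraries. The Runx1 to Runx3 ratio in CPM was 0.647, 1.54, 1.98 and 1.89 in AZD1152 replicates 1 to 4 and 4.2, 1.02 and 1.59 in vehicle replicates 1 to 3, so that replicate 1 held the lowest ratio among treated mice and the highest among vehicle mice.

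Tbx21 (ENSMUSG00000001444; chromosome 11, 97098071 to 97115331, minus strand) encodes T-bet, the T-box factor of interferon-gamma-producing T helper cells and natural killer cells. It was a rare transcript, with 15, 7, 15 and 11 counts in AZD1152 replicates 1 to 4 and 25, 46 and 43 counts in vehicle replicates 1 to 3. These counts correspond to 0.906, 0.464, 0.957 and 0.778 CPM in AZD1152 kidneys and 1.45, 2.62 and 2.38 CPM in vehicle kidneys. The groups did not overlap, and Tbx21 fell by 1.46 ± 0.33 log2 units (SE; edgeR adjusted p = 0.033). The call was lost without AZD1152 replicate 2 or 4 or vehicle replicate 2 or 3 (edgeR adjusted p up to 0.124). Eomes (ENSMUSG00000032446; chromosome 9, 118478212 to 118486132, plus strand), its T-box relative in CD8 T cells and natural killer cells, had 2.24, 0.929, 3.51 and 1.91 CPM in AZD1152 kidneys and 3.14, 8.33 and 4.44 CPM in vehicle kidneys. AZD1152 replicate 3 lay above vehicle replicate 1, and the log2 fold change of -1.30 ± 0.44 did not pass the edgeR test (adjusted p = 0.105; DESeq2 adjusted p = 0.0312). Eomes was the more abundant of the pair in every library, with a Tbx21 to Eomes ratio in CPM of 0.273 to 0.5 in AZD1152 kidneys and 0.315 to 0.538 in vehicle kidneys. Across the 3 family pairs, the log2 ratio differed between AZD1152 and vehicle by -0.08 (Ikzf1 to Ikzf3), -0.45 (Runx1 to Runx3) and -0.14 (Tbx21 to Eomes). The exact two-sided permutation p-values were 0.857, 0.514 and 0.629, each 0.857 after adjustment over the 3, in a design of 4 against 3 libraries that cannot give less than 0.0571.

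Tcf7 (ENSMUSG00000000782; chromosome 11, 52252371 to 52283014, minus strand), which encodes the Wnt-linked factor TCF-1 of naive and memory-like T cells, had its highest level in vehicle replicate 2. It had 6.04, 1.92, 3.38 and 3.82 CPM in AZD1152 replicates 1 to 4 and 5.64, 17.3 and 8.37 CPM in vehicle replicates 1 to 3. AZD1152 replicate 1 was above vehicle replicate 1. The log2 fold change was -1.45 ± 0.43, as large as that of Tbx21, but with an edgeR adjusted p of 0.073 (DESeq2 adjusted p = 0.00712). Foxp3 (ENSMUSG00000039521; chromosome X, 7573644 to 7595245, plus strand), the factor of regulatory T cells, was the rarest of the 10. It had 17, 3, 4 and 11 counts in AZD1152 replicates 1 to 4 and 4, 18 and 19 counts in vehicle replicates 1 to 3. High and low libraries stood in both groups. Its log2 fold change was -0.44 ± 0.65 with a 95% interval of -1.90 to 1.02, which holds both no change and a fall as large as that of Ikzf1 (edgeR adjusted p = 0.725). Flicr shares 18.6% of the exonic bases of Foxp3 on the same strand and Ccdc22 shares 12.9% on the other, so part of these counts depends on how the reads were assigned.

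Gata3 (ENSMUSG00000015619; chromosome 2, 9857078 to 9890034, minus strand) was the 1 factor with a positive estimate. It had 11.2, 12.3, 11.1 and 12.5 CPM in AZD1152 kidneys and 9.13, 12.8 and 10.3 CPM in vehicle kidneys, with overlapping groups. The log2 fold change was 0.14 ± 0.14 with a 95% interval of -0.17 to 0.45 (SE; edgeR adjusted p = 0.595), and it was -0.01 when libraries were scaled by total counts. The lower bound of that interval lies above the upper bounds for Ikzf1 (-0.9998), Tbx21 (-0.72), Spi1 (-0.44) and Runx1 (-0.45). It also lies above those for Tcf7 (-0.48), Ikzf3 (-0.46) and Eomes (-0.31), and below those for Runx3 (-0.035) and Foxp3 (1.02). Markers of the distal nephron and collecting duct, where Gata3 is also made, summed to 1264 to 1482 CPM in AZD1152 kidneys and 947.4 to 1261 CPM in vehicle kidneys. Much of this sum was Calb1, with a mean of 546.1 CPM in AZD1152 kidneys and 292.2 CPM in vehicle kidneys. Its groups overlapped and it was not called (edgeR adjusted p = 0.0955). Aqp2 went the other way without being called, with a log2 fold change of -0.25 ± 0.25 (SE). Of the 13 tested markers of this list, 4 rose and 0 fell, beside 3.02% and 4.81% of all genes, and 4 had negative estimates. The median log2 fold change was 0.24. No marker of the list was at 0 in all libraries, though Avpr2, with 10 counts in all, was at 0 in some libraries of both groups and was not tested. Of the 9 proximal tubule markers 4 also rose and 0 fell, with a median of 0.53. Markers of mesangium and stroma summed to 160.5 to 275.7 CPM in AZD1152 kidneys and 326.3 to 461.9 CPM in vehicle kidneys, and 1 of the 8 fell and 0 rose. The part of collecting duct and mesangial cells in the Gata3 level was not tested.

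The upstream sequences of a factor that fell evenly (Ikzf1), a pair that fell with less margin (Runx1 and Tbx21) and the factor with a positive estimate (Gata3) are shown for comparison. RefSeq promoter windows were found for 8 of the 10, with Ikzf3 and Spi1 missing. Each line holds the 250 bases before an annotated start (GRCm38.p6), 5′ to 3′ on the gene's strand, with capitals for any of the motifs searched.

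Ikzf1, chr11:11685675-11685924, plus strand: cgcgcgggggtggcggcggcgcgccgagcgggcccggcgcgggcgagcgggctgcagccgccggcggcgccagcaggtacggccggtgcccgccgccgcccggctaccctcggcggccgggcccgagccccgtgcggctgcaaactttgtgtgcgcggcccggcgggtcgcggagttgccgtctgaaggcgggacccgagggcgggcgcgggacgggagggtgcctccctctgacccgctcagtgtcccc
Tbx21, chr11:97115332-97115581, minus strand: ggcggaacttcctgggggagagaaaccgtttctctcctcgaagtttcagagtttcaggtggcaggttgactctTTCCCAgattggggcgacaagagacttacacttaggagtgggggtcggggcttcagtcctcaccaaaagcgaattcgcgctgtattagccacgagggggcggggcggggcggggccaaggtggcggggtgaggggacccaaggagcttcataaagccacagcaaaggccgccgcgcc
Runx1, chr16:92697330-92697579, minus strand: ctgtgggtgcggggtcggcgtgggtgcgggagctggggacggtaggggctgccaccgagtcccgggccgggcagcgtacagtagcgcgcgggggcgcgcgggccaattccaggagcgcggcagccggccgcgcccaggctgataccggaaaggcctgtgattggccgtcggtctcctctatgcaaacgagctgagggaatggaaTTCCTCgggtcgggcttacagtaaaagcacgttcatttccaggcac
Gata3, chr2:9878601-9878850, minus strand: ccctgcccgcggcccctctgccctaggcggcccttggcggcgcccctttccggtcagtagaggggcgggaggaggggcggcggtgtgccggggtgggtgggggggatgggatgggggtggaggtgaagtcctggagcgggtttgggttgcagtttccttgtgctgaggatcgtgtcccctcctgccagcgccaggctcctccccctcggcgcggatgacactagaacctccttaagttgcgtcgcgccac

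The Gata3 window lies within an exon of the antisense gene Gm13256, and the other 3 hold no exonic bases. The G and C content of these windows was 82.0% in Ikzf1, 60.8% in Tbx21, 67.6% in Runx1 and 70.0% in Gata3. The motifs, searched on both strands, were GAGGAA for PU.1, TGTGGT for RUNX, TGGGAA for Ikaros, AGGTGTGA for T-box factors, AGATAA for the GATA family, GTAAACA for forkhead factors and ATCAAAG for TCF. No matches overlapped in these 4 windows. The Tbx21 window held TTCCCA, the Ikaros letters on the other strand, 177 bases before the start, and the Runx1 window held TTCCTC, the PU.1 letters on the other strand, 46 bases before it. The other 2 windows held none of the 7. Ikzf1 and Runx1 each had a further window that is not shown, at chr11:11689927-11690176 and chr16:92826075-92826324. These also held none of the 7, and that of Runx1 held 75 exonic bases. Over 13 such 250-base windows of the 8 genes, PU.1 letters stood in 2, Ikaros letters in 2, RUNX letters in 1 and GATA letters in 1, and T-box, forkhead and TCF letters in 0. The shares of all 32851 windows with a match were 23.3% for PU.1, 21.6% for Ikaros, 14.0% for RUNX, 9.99% for GATA, 1.12% for T-box, 3.17% for forkhead and 3.21% for TCF. A match describes these letters in this window and is not a measured binding site.

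Set per length of merged exons, the factors could be ranked by level. In CPM per kilobase, Spi1 stood first in both groups, at 4.74 ± 1.73 in AZD1152 kidneys (SD, n = 4) and 9.4 ± 0.136 in vehicle kidneys (SD, n = 3). Gata3 had rank 2 in AZD1152 kidneys, at 2.96 ± 0.189, and rank 4 in vehicle kidneys, at 2.7 ± 0.469. Ikzf1 had rank 3 in AZD1152 kidneys, at 1.92 ± 0.29, and rank 2 in vehicle kidneys, at 4.77 ± 0.455. Tcf7 had rank 4 in AZD1152 kidneys, at 1.44 ± 0.65, and rank 3 in vehicle kidneys, at 3.97 ± 2.32. In vehicle kidneys Ikzf1, Tcf7 and Gata3 were neighbours, and the wide spread of Tcf7 covered the means of the other two. Eomes, Ikzf3, Runx3, Tbx21 and Runx1 lay between 0.312 and 0.63 in AZD1152 kidneys and between 0.793 and 1.28 in vehicle kidneys, with neighbours within 1 SD of each other. Foxp3 was last, at 0.123 ± 0.0882 in AZD1152 kidneys and 0.168 ± 0.102 in vehicle kidneys.

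The 7 mice did not share 1 order for all factors. Among AZD1152 kidneys, replicate 1 was the highest of the 4 for Ikzf3, Runx3, Tcf7 and Foxp3 and the lowest for Runx1, and replicate 2 was the lowest for 8 of the 10. Among vehicle kidneys, replicate 2 was the highest of the 3 for 7 of the 10 and the lowest for Spi1 and Runx1, and replicate 1 was the highest for Spi1 and Runx1 and the lowest for the other eight. The summed T cell markers ran in a like manner, with 45.4, 20.3, 38.9 and 38.1 CPM in AZD1152 replicates 1 to 4 and 70.7, 130.1 and 93.5 CPM in vehicle replicates 1 to 3. The summed macrophage markers were 553.3, 591.1, 848.0 and 879.3 CPM in AZD1152 kidneys and 1723, 1243 and 1415 CPM in vehicle kidneys. Vehicle replicate 1 thus had the lowest T cell sum and the highest macrophage sum of its group, and AZD1152 replicate 1 the highest T cell sum and the lowest macrophage sum of its group. These orders are descriptions of 7 animals, with no test.

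**Figure D2:**
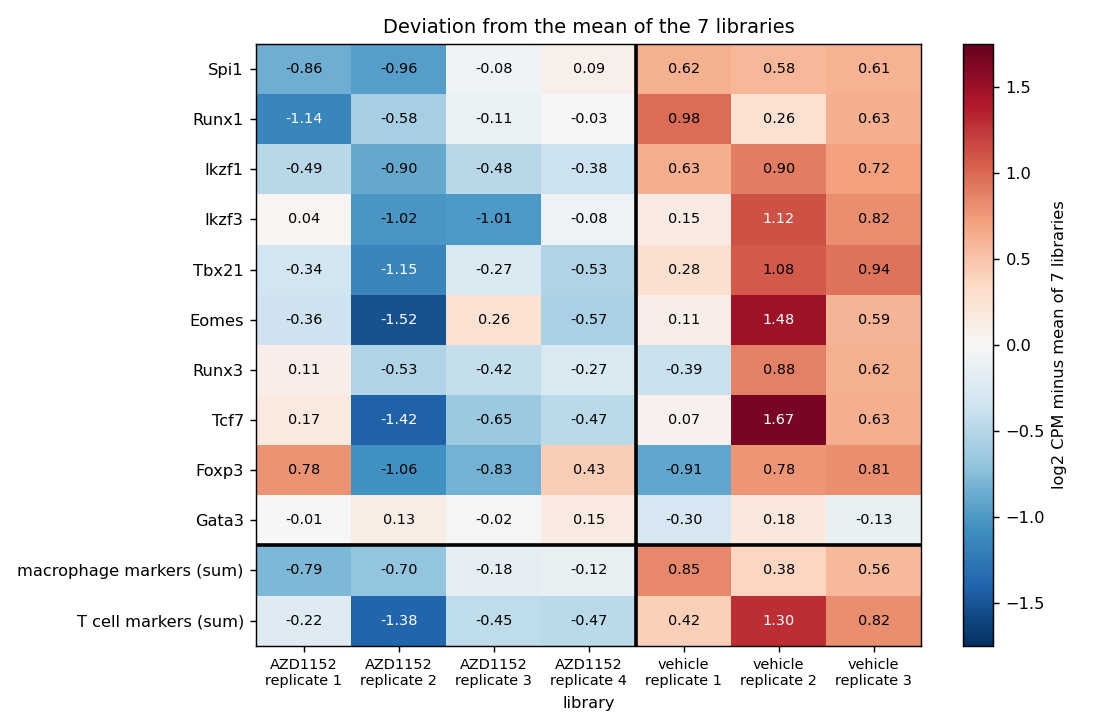
Deviation of each factor (rows) in each library (columns) from the mean of the 7 libraries, in log2 CPM, with AZD1152 libraries left of the black line and vehicle libraries right of it. The lower 2 rows give the log2 of the summed CPM of macrophage and T cell markers. Tcf7 stands 1.67 above the mean in vehicle replicate 2 and 1.42 below it in AZD1152 replicate 2, while Gata3 stays within 0.30 of it in every library.

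The factors were also read against RNA of leukocytes as a whole. The 11 pan-leukocyte genes of the list used here (Ptprc, which encodes CD45, and others) summed to 215.8 to 328.0 CPM in AZD1152 kidneys and 539.2 to 615.9 CPM in vehicle kidneys. Beside 4.81% of all genes, 10 of these 11 fell (median log2 fold change -1.04). When each library was scaled by the mean log2 level of these genes in place of TMM, 1 of the 10 factors was called, and this was Gata3. Its level per leukocyte RNA was higher in AZD1152 kidneys by 1.23 ± 0.26 log2 units (SE; edgeR adjusted p = 1.65e-05). This p, and the SEs of this fit, rest mostly on a spread pooled over all genes, with 253.2 prior degrees of freedom beside 5 residual ones (4.018 prior in the TMM fit), and so reflect little of the spread of Gata3 over the 7 libraries. The exact test over the libraries gave 0.0571 for Gata3, the smallest p it can give. Under this scaling 83.1% of all tested genes were called higher and 0.621% lower. The other 9 had relative log2 fold changes of -0.43 to 0.60, with 0 called (edgeR adjusted p = 0.187 to 0.957). Spi1 had 0.04 ± 0.25, Runx1 -0.02 ± 0.29, Ikzf3 -0.14 ± 0.30 and Ikzf1 -0.25 ± 0.25 (SE). The estimates of Tbx21 (-0.43 ± 0.43), Tcf7 (-0.42 ± 0.30) and Eomes (-0.31 ± 0.35) were the most negative of the 10, and those of Runx3 (0.33 ± 0.33) and Foxp3 (0.60 ± 0.52) were positive without passing the test.

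Library by library, the same reading gave each factor as its log2 CPM minus the mean log2 CPM of the pan-leukocyte genes. Spi1 stood at -0.70 ± 0.27 in AZD1152 kidneys and -0.72 ± 0.07 in vehicle kidneys (SD, n = 4 and 3), and Ikzf1 at -0.83 ± 0.16 in AZD1152 kidneys and -0.61 ± 0.23 in vehicle kidneys. Gata3 stood at -0.74 ± 0.34 in AZD1152 kidneys and -1.97 ± 0.34 in vehicle kidneys, with no overlap. The exact two-sided permutation p for Gata3, 0.0571, was 0.571 after adjustment over the 10, and those of the other 9 were 0.229 to 0.971. Scaled by T cell markers, Tbx21, Tcf7 and Eomes had relative log2 fold changes of -0.17, -0.10 and 0.04, and scaled by macrophage markers Spi1 had -0.01, again with 0 of these called (edgeR adjusted p = 0.776 to 0.975).

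**Figure D3:**
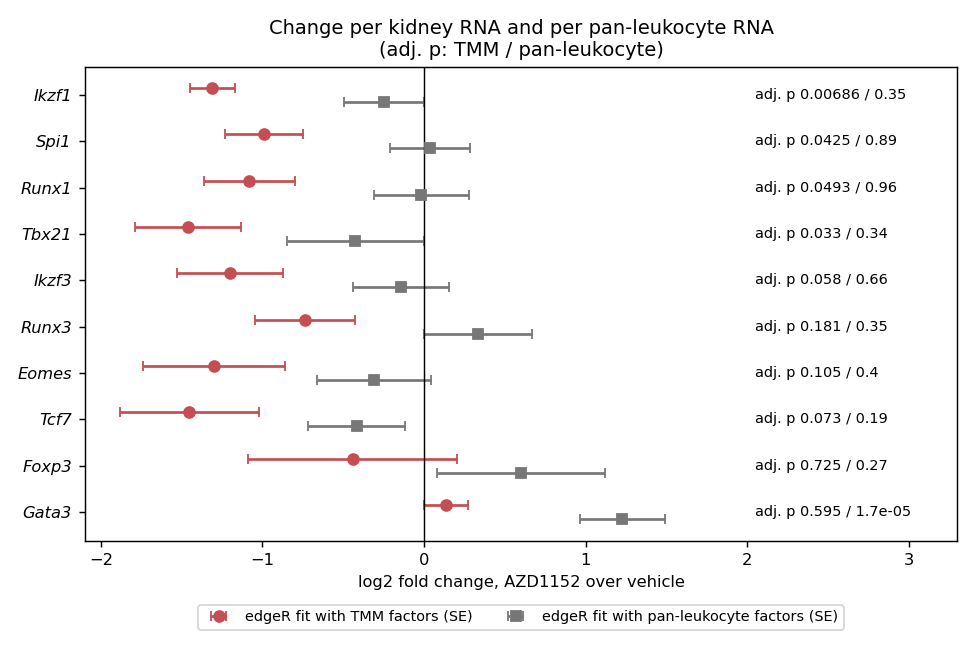
Log2 fold change of AZD1152 over vehicle for each factor with its SE, in the edgeR fit with TMM factors (red circles) and in the fit with pan-leukocyte factors (grey squares), with both adjusted p-values at the right. With TMM factors 9 of the 10 estimates are negative, and with pan-leukocyte factors the 10 lie between -0.43 and 1.23, with Gata3 the highest.

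Of 19 paralogs and partners, 15 were tested, and Cbfb alone was called lower and 0 higher, beside 4.81% and 3.02% of all genes, with a median log2 fold change of -0.28. Gata1, the erythroid GATA factor, had 0 counts in all libraries. Besides Cbfb and Runx2, the rule for named genes took Lef1, the partner of TCF-1 in T cells, with 0.128 to 1.148 CPM in AZD1152 kidneys and 0.814 to 2.11 CPM in vehicle kidneys. It also took Spic, a PU.1 relative of red pulp macrophages, with 0.283 to 1.53 CPM in AZD1152 kidneys and 1.03 to 1.8 CPM in vehicle kidneys, and Foxp4, with 20.0 to 27.9 CPM in AZD1152 kidneys and 25.4 to 29.3 CPM in vehicle kidneys. The groups overlapped for these 3, which had log2 fold changes of -1.56 ± 0.62, -1.05 ± 0.50 and -0.28 ± 0.13 (edgeR adjusted p = 0.161, 0.232 and 0.232).

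Among 31 other factors of lymphocytes, 29 were tested, 3 fell and 0 rose, beside 4.81% and 3.02% of all genes, with a median of -0.41. At an unadjusted p under 0.05, 10 were lower, beside 13.1% of all genes, and 3 were higher. The share of all genes higher at that unadjusted threshold was not counted. Such counts of higher genes, here and in later lists, therefore have no share beside them. Ets1, an ETS factor of lymphocytes and endothelium, had 41.0 to 55.4 CPM in AZD1152 kidneys and 69.3 to 72.2 CPM in vehicle kidneys and fell by 0.55 ± 0.10 on the log2 scale (edgeR adjusted p = 0.0197). Batf, an AP-1 factor of effector T cells, had 0.862 to 1.79 CPM in AZD1152 kidneys and 2.94 to 4.28 CPM in vehicle kidneys and fell by 1.30 ± 0.27 (edgeR adjusted p = 0.0273). Klf2, a factor of quiescent T cells and of endothelium, fell by 0.53 ± 0.12 (edgeR adjusted p = 0.0387). Pou2f2 (Oct-2, of B cells) had -0.91 ± 0.24 and Prdm1 (Blimp-1, of plasma cells and effector T cells) -0.61 ± 0.18, neither past the threshold (edgeR adjusted p = 0.0501 and 0.0713). Among 21 other factors of myeloid cells, 20 were tested, and Irf8, which directs monocytes and dendritic cells, was the 1 that fell, beside 4.81% of all genes. At an unadjusted p under 0.05, 4 of the list were lower, beside 13.1% of all genes, and 1 was higher. Irf8 had 31.2 to 51.6 CPM in AZD1152 kidneys and 60.5 to 79.5 CPM in vehicle kidneys, or -0.68 ± 0.16 on the log2 scale (edgeR adjusted p = 0.0404). Lyl1, Cebpb and Bhlhe40 had -0.89 ± 0.30, -0.90 ± 0.34 and 0.39 ± 0.15 without passing, and 0 of the list rose. The calls of Batf, Klf2 and Irf8 were lost without 4, 6 and 5 of the 7 libraries, and that of Ets1 without vehicle replicate 1 or 3 (edgeR adjusted p up to 0.0768, 0.118, 0.135 and 0.0689).

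Genes that the factors are known to control were read in the same fit. In the T-bet and Eomes programme 5 of 10 tested genes fell and 0 rose, beside 4.81% and 3.02% of all genes. The median log2 fold change was -1.27, beside -1.48 for 13 tested T cell markers and -1.04 for 11 pan-leukocyte genes. Whether the genes of these programmes moved through the factors was not tested. Ccl5, a chemokine of effector T cells, had 6.3 to 13.1 CPM in AZD1152 kidneys and 26.9 to 45.0 CPM in vehicle kidneys and fell by 1.97 ± 0.24 on the log2 scale. The granzyme genes Gzmk and Gzmb fell, with log2 fold changes of -2.15 ± 0.33 and -2.06 ± 0.35 (edgeR adjusted p = 0.0124 and 0.0155). Ifng, the classic T-bet target, Il12rb2, Klrg1 and Xcl1 did not pass the filter. Of 17 tested PU.1 targets, 9 fell and 0 rose, with a median of -1.10, beside -0.95 for 16 macrophage markers. Ncf1, of the phagocyte oxidase, had 7.43 to 9.98 CPM in AZD1152 kidneys and 18.1 to 21.002 CPM in vehicle kidneys, and Fcgr1, an Fc receptor, had 3.93 to 8.29 CPM in AZD1152 kidneys and 18.6 to 20.1 CPM in vehicle kidneys. Itgb2, the shared chain of leukocyte integrins, fell by 1.19 ± 0.17 (edgeR adjusted p = 0.0108). The calls of Ccl5, Gzmk, Ncf1, Fcgr1 and Itgb2 held without any 1 of the 7 libraries, and that of Gzmb was lost without vehicle replicate 3 (edgeR adjusted p = 0.0532).

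The programmes of factors that did not pass the test were read in turn. In the regulatory T cell programme 2 of 10 tested genes fell and 0 rose, beside 4.81% and 3.02% of all genes. The median was -0.77. Il10, which encodes an anti-inflammatory cytokine also made by other leukocytes, had 0.191 to 0.354 CPM in AZD1152 kidneys and 0.684 to 1.16 CPM in vehicle kidneys (log2 fold change -2.00 ± 0.39, edgeR adjusted p = 0.0221). Tigit, an inhibitory receptor, fell by 1.28 ± 0.32, and the integrin gene Itgae had -0.88 ± 0.23 (edgeR adjusted p = 0.0432 and 0.0506). The naive and memory programme around Tcf7 had 2 of 12 tested genes lower, among them Klf2, and 0 higher, with a median of -0.74. The chemokine receptor gene Cxcr5 had -1.40 ± 0.43 (edgeR adjusted p = 0.0832). Of the 10 genes of the type 2 helper programme linked to GATA3, 3 were tested, and 0 were called in either direction by edgeR, at an unadjusted p under 0.05 or by DESeq2. Maf, which tubules also express, had 0.38 ± 0.19, Il17rb 0.20 ± 0.19 and Il4 0.31 ± 0.31. The call of Il10 was lost without vehicle replicate 1 or 3 and that of Tigit without any 1 library (the highest edgeR adjusted p was 0.0929 and 0.142).

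Of 13 tested T cell markers 9 fell, of 16 macrophage markers 10 fell and of 8 tested markers of cytotoxic cells 3 fell. Their medians were -1.48, -0.95 and -1.11, and 0 of these markers rose. Of all genes 4.81% fell and 3.02% rose. Some markers also stand in the programme lists, such as Fcgr1 among the PU.1 targets and Gzmb in the T-bet and Eomes programme. The counts of these lists are therefore not independent. Of 8 tested B cell markers and 6 tested neutrophil markers, 0 were called by edgeR. At an unadjusted p under 0.05, 2 and 1 of them were lower and 0 higher, beside 13.1% of all genes that were lower. DESeq2 also called 2 and 1 lower, beside 7.65% of the genes to which it gave an adjusted p. The summed B cell markers spread widely, from 24.2 to 508.0 CPM in AZD1152 kidneys and from 118.5 to 787.2 CPM in vehicle kidneys. Of 7 tested dendritic cell markers 6 had negative estimates (median log2 fold change -0.47). By edgeR 0 fell and 1 rose, at an unadjusted p under 0.05 3 were lower and 1 higher, and DESeq2 called 2 lower and 1 higher. The 1 that rose was Siglech, of plasmacytoid dendritic cells, with 0.849 to 1.66 CPM in AZD1152 kidneys and 0.277 to 0.524 CPM in vehicle kidneys (log2 fold change 1.55 ± 0.37, edgeR adjusted p = 0.0387). Leaving out AZD1152 replicate 4 kept this call and leaving out any other library lost it, up to an edgeR adjusted p of 0.149. Of the 8 markers of tubular injury 7 fell, and of the 9 endothelial and 5 podocyte markers 0 were called by edgeR or DESeq2, with 1 of each list higher at an unadjusted p under 0.05. None of the markers in these lists had 0 counts in all libraries, and the part of a change in cell numbers in the levels of the 10 factors was not tested.

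**Figure D4:**
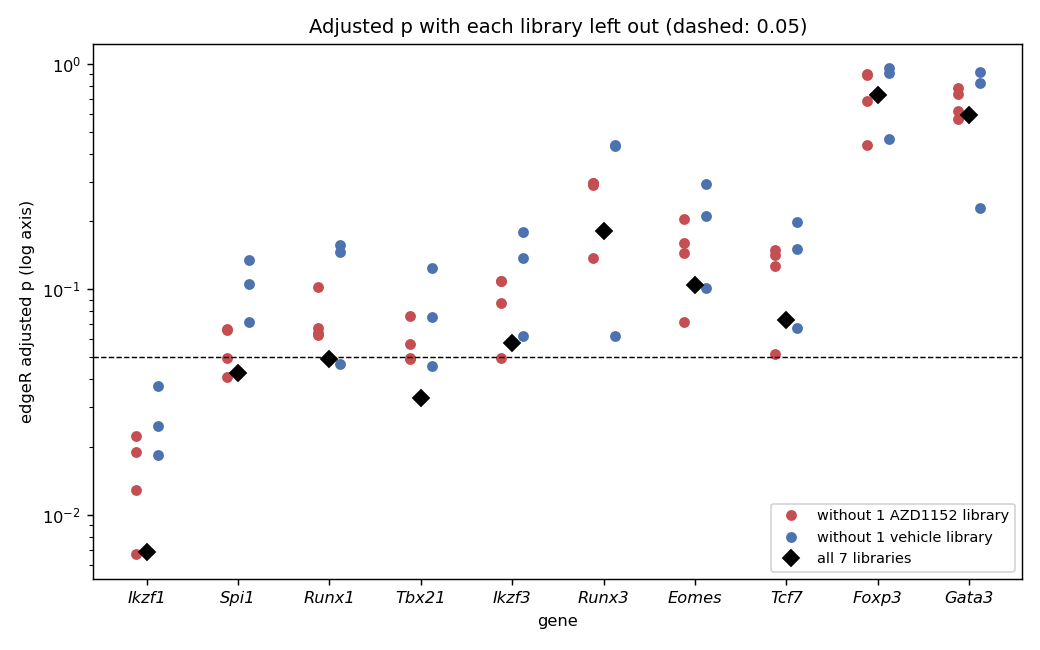
EdgeR adjusted p of each factor with all 7 libraries (black diamonds), without 1 AZD1152 library (red) and without 1 vehicle library (blue), on a log axis with the threshold of 0.05 dashed. Ikzf1 stays under the threshold in every case, Spi1, Runx1 and Tbx21 cross it, and Ikzf3 falls under it only without AZD1152 replicate 1.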

How the data were processed

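The deposited table holds whole-number read counts per Ensembl gene for 7 libraries, without normalization by the authors. Poly(A) RNA, per the labels' protocols, was captured with oligo(dT) beads and libraries were made with a TruSeq kit. Per the submitters' processing notes, CASAVA, HISAT2 2.0.5, DESeq2 and DESeq were used with build GRCm38. Which program counted reads, with which strand option and annotation, is not given in the sources used here. Antisense reads therefore cannot be told apart. Groups and columns were matched by sample title and description, and replicates were separate mice per the series text. No 2 libraries agreed within sampling noise: over 21 pairs, chi-square divided by its degrees of freedom was at least 9.97.

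Symbols, coordinates and exon lengths came from GENCODE mouse release 21 (GRCm38), which named 53360 of 53465 genes. Low counts were removed by filterByExpr, TMM gave the scaling, and genes were tested with edgeR 4.0.16 (R 4.3.3), by the quasi-likelihood test on group, with Benjamini-Hochberg adjustment over 15774 genes, two-sided, threshold 0.05. SE is the size of the log2 fold change over the square root of F. CPM are TMM-scaled, and log2 CPM use a prior count of 2. A floor of 3 counts corresponds to 0.176 to 0.204 CPM and covers counting error only, since PCR reads are not independent molecules. For relative changes, library factors came from the mean log2 CPM of 11 pan-leukocyte genes.

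The 10 factors and all lists were chosen with earlier results of these data known. Named genes were the 10 factors and, from each of the 9 lists of factors and programmes, the 3 genes (5 for paralogs and other factors) with the smallest p; of a marker list the 2 with the smallest p could be named. A few genes that this rule takes are not reported here. Gata1, Calb1, Aqp2, Avpr2, the untested targets and the Runx2 promoter site were chosen after their values were seen. Alternatives were RLE factors, total counts, other filters, DESeq2 1.42.0, a replicate block, each library left out and, for relative changes, other marker lists; a permutation test per library was added after seeing the data.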

Additional observations from a re-analysis of the deposited data

Results flagged for a closer look

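Prdm1, which encodes Blimp-1 of plasma cells and effector T cells, had 1 library far from the others in the AZD1152 group. Its levels were 5.26, 3.65, 5.29 and 5.45 CPM in AZD1152 replicates 1 to 4 and 6.75, 7.64 and 8.1 CPM in vehicle replicates 1 to 3. The gap of AZD1152 replicate 2 to its nearest neighbour was 0.893 of the range of the group, above Dixon's critical value for 4 samples. Of the 41 genes looked at in this way 1 was set apart, and chance sets apart about 1 in 20 groups. The 10 transcription factors had no such library.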

How the results depend on the processing

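The direction of Ikzf1, Ikzf3, Spi1, Runx1, Runx3, Tbx21, Eomes, Foxp3 and Tcf7 was the same in every alternative run, and that of Gata3 turned to -0.015 with total counts in place of TMM. Under that scaling the median over all tested genes was -0.151, with 233 genes called higher and 1480 called lower (13.6% of calls higher), beside 476 and 759 (38.5%) with TMM. DESeq2 called 2133 genes, 950 higher and 1183 lower, and 7 of the 10 factors. Without 1 library the calls numbered 223 to 1094, of which 60 to 475 were higher and 163 to 619 lower, and 1 to 3 of the 10 factors were called. RLE factors left 4 called, as did the stricter filter, which removed Foxp3 from testing.

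The labels do not state that the replicate numbers shared by the groups pair the mice. Deviations of same-numbered libraries correlated at -0.288, 0.209 and -0.119 across genes, and not every library correlated best with its own number. Deviations were taken from the mean of each small group, so these correlations cannot decide whether mice were paired. With the replicate number as a block, 209 genes were called, 63 higher and 146 lower, and 1 of the 10 factors. Under this block the relative log2 fold change of Spi1 was -0.093.

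Relative to leukocyte genes, the small estimates changed sign with the list. Scaled by T cell markers Ikzf3, Runx1 and Eomes had 0.12, 0.15 and 0.036, and scaled by macrophage markers Spi1 had -0.011. Without 1 library the relative values ran from -0.41 to 0.15 for Ikzf3, -0.14 to 0.14 for Runx1, -0.084 to 0.13 for Spi1, -0.61 to 0.24 for Eomes and -0.81 to 0.23 for Tcf7, and 1 to 2 factors were called. Gata3 was called in each of these 7 runs. Tcf7 was called in 2 of them, without AZD1152 replicate 1 and without vehicle replicate 1 (edgeR adjusted p down to 0.0177). With all 7 libraries, this scaling called 83.1% of all tested genes higher, with 253.2 prior degrees of freedom beside 5 residual ones. A call under it therefore reflects little of the spread of Gata3 or Tcf7 over the libraries. The cause of these moves was not tested. Counts of 3 to 19 per library limit Foxp3, and 7 to 46 limit Tbx21.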
